A study of Arabidopsis thaliana x Arabidopsis lyrata and Arabidopsis thaliana x Arabidopsis halleri with 18 samples.

Results

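The subject is the change of allele ratio in cold in an F1 hybrid between *Arabidopsis thaliana* and a perennial relative. For each gene and plant the ratio was the log2 of the deposited value of the non-thaliana allele over that of the thaliana allele, and the 3 plants kept in cold were compared with the 3 kept under standard conditions. Of 16419 genes in the files, 10640 were compared, namely those with a mean sum of both alleles of at least 10 per plant in each group once the 1 added to each allele was taken off. The plants are labelled as F1 hybrids of *A. thaliana* and *A. halleri* (Col-0xh2.2), and the second allele in their files is headed as that of *A. lyrata*. These plants are therefore called halleri-labelled, and their second allele is named non-thaliana. All were 4 weeks old and had been grown on agar medium with sucrose at 22 °C in 16 h of light and 8 h of dark. Cold plants then spent 1 hour at 4 °C in dim light, and 3 dehydrated plants lay off the agar for 1 hour at 22 °C in dim light. Standard plants stayed at 22 °C, no dim light is given for them, and the labels call them leaf samples although the whole aerial part of 1 plant is given as the material of each library. Temperature, dim light and any difference in the tissue taken cannot be told apart in cold against standard. A further 9 plants of a hybrid labelled Col-0xMN47 (*A. lyrata*) received the same 3 treatments.

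In an F1 hybrid both parental copies of a gene lie in the same nucleus and meet the same regulatory proteins, so unequal RNA from the copies reflects differences that travel with each copy, such as its promoter, or in the stability of its RNA. A ratio that moves between conditions means that the copies did not respond by the same factor. In *A. thaliana*, chilling is known to raise within hours the CBF transcription factors, which bind the CRT/DRE element, and then dehydrins and other protective proteins. Abscisic acid, jasmonate, the circadian clock and calcium signals feed into the same response, and dim light by itself moves clock, photosynthesis and sugar genes.

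The deposited values of each halleri-labelled library added up to between 1524104 and 1531268, because they were scaled to a near-equal total, so the depth behind them is unknown. The median gene had near-equal alleles in each plant, with a median log2 ratio of 0.03, 0.05 and 0.05 in cold and of 0.12, 0.06 and 0.05 in standard plants. The group means of these medians differed by -0.03, which an exact 2-sided permutation test of 3 against 3 gave p = 0.4, with 0.1 the smallest p it allows. Cold replicate 1 and standard replicate 1 stood apart from their groups. Across genes, the total of cold replicate 1 correlated by 0.757 on average with dehydrated plants and by 0.684 with the other cold plants. That of standard replicate 1 correlated by 0.617 with its own group and by 0.725 with dehydrated plants. By allele ratio neither plant was closer to dehydrated plants than to its own group. The cold plant had 0.828 against its own group and 0.745 against dehydrated plants, and the standard plant 0.677 and 0.627. Both own-group values were still the lowest of their groups, beside 0.849 and 0.857 in cold and 0.696 and 0.727 in standard plants. The ratios of standard replicate 1 correlated by 0.646 and 0.708 with the other standard plants and by 0.673, 0.660 and 0.671 with cold plants. Of 5 green leaf markers in the files all were present in every group, with summed values of 18869 to 27702 in cold and 50712 to 78672 in standard plants. Of 9 root markers, 8 were listed at 0 in every standard plant and all 9 were above 0 in some cold plant. Without PYK10 the root markers summed to 159, 0 and 8 in cold replicates 1, 2 and 3, and to 0 in standard plants. Of 10 floral organ markers, 5 were listed at 0 in all cold and standard plants, and the sums were 1 to 13 in cold and 18 to 42 in standard plants. The part of tissue in the allele ratios was not tested.

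The highest values in the cold libraries ended at one level. In cold replicate 1, 2 and 3 the highest allele value was 2777, 3796 and 3162, and 29, 32 and 31 genes had an allele within 10% of it. In 14, 16 and 16 of these genes both alleles were there. In standard plants the highest values were 15736, 35468 and 36204, with 1 gene that close in each. In dehydrated plants they were 11929, 11206 and 10002, with 5, 2 and 5 genes that close. RBCS1A, the small subunit of Rubisco, was among the genes with both alleles there. Its alleles stood at 2759 and 2767, 3778 and 3780, and 3114 and 3122 in the cold plants, a log2 ratio of 0.00 in each. In standard plants they stood at 13913 and 12285, 35467 and 19389, and 36203 and 22442, ratios of -0.18, -0.87 and -0.69. Dehydrated plants had 11904 and 11885, 11205 and 9633, and 9938 and 9903, ratios of -0.002, -0.22 and -0.005. At this level the recorded ratio is held near equality, and the cold treatment and the upper limit of its libraries cannot be told apart. Among the genes compared, 91 had an allele above 50% of the highest value of a cold library. Of these 1 was called below, PSBR, which is 1.1%, beside 1.1% over all genes compared.

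**Figure D1:**
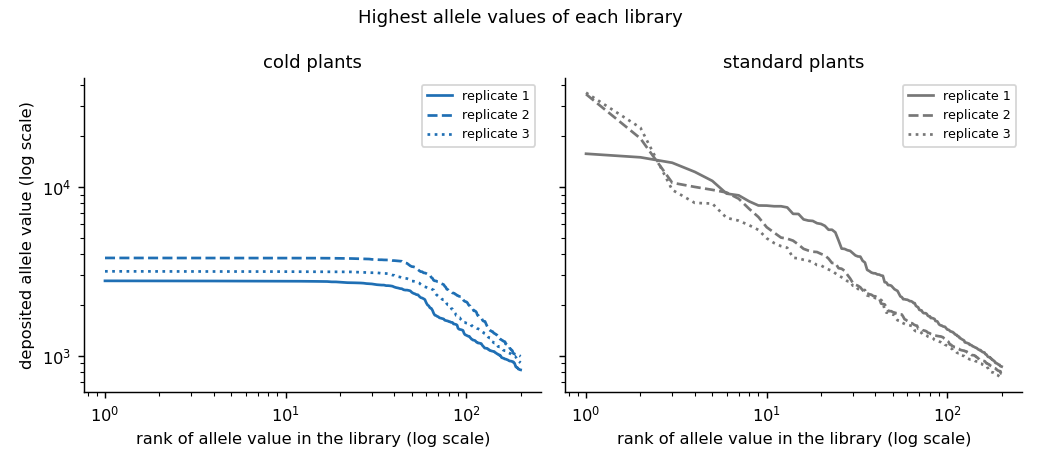
The 200 highest allele values of each library are drawn against their rank, both axes on a log scale, for the 3 cold (left) and 3 standard (right) halleri-labelled plants, 1 line per library. The cold lines are flat at 2777, 3796 and 3162 at the highest ranks, and the standard lines fall from 15736, 35468 and 36204.

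In cold the allele ratio changed in 117 of 10640 genes, which is 1.1% (limma, Benjamini-Hochberg adjusted p below 0.05, here called). In 46 genes (0.432%) the non-thaliana allele gained on the thaliana allele, and in 71 (0.667%) it lost. The median size of the change was 1.58 on the log2 scale over the called genes and 0.32 over all genes compared. The smallest change called was 0.93. In all 117 genes the 3 cold plants and the 3 standard plants did not overlap, which held for 2500 genes (23.5%) over the whole comparison. An unadjusted p below 0.05 was reached by 1900 genes (17.9%). The count changed when any 1 of the 6 plants was left out. It was 9, 7 and 5 without cold replicate 1, 2 and 3, and 311, 45 and 15 without standard replicate 1, 2 and 3. Without both first replicates, a setting chosen after seeing the data, the count was again 117, but with 67 higher and 50 lower. Of these genes 37 were shared, and the balance of directions did not hold in this setting. A fit of only the 6 cold and standard plants, without the dehydrated plants that share the estimate of spread, called 12 genes.

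In most called genes the leading allele exchanged place. It did so in 77 of 117 called genes and in 2388 of all 10640. The alleles were closer to equal in cold in 69 called genes, 21 of the 46 that rose and 48 of the 71 that fell. The median absolute log2 ratio of the called genes was 0.98 in standard and 0.72 in cold plants, against 0.45 in both groups over all genes compared. These counts describe genes chosen by the same contrast and carry no test.

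**Figure D2:**
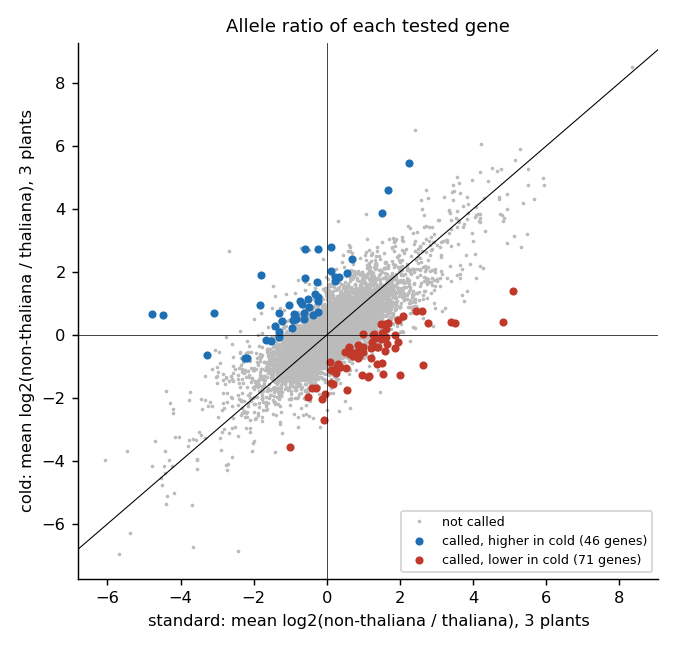
Each point is 1 of 10640 genes, placed by its mean log2 ratio of the non-thaliana over the thaliana allele in 3 standard plants (x axis) and 3 cold plants (y axis); the diagonal marks no change. The 46 genes called higher and the 71 called lower lie off the diagonal, and many sit across the 0 lines, where the leading allele differs between the groups.

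For 5 called genes, the 250 bases before the annotated gene start of the *A. thaliana* reference (TAIR10.1, RefSeq) are shown 5′ to 3′ on the strand of the gene, to give the promoter of the thaliana copy. They are AT2G03390, whose call was the steadiest, FUM2, the largest fall among called genes with a mean of 50 or more, and ERD1, JAZ3 and TIP1;2. The last 3 come from 8 called genes of the pathway lists below and were picked by no stated rule. Capitals mark letters of a motif from a set of 6, sought on both strands: the CRT/DRE core CCGAC, the evening element AAAATATCT, the CCA1 binding site AAAAATCT, the abscisic acid response core ACGTG, the G-box CACGTG, which contains it, and the CAMTA core CGCG. The promoter of the non-thaliana copy was not used here.
AT2G03390 (chr2:1032719-1032968, minus strand) is followed by FUM2 (chr5:20729181-20729430, plus), ERD1 (chr5:20763846-20764095, plus), JAZ3 (chr3:6119457-6119706, plus) and TIP1;2 (chr3:9723905-9724154, minus).
AT2G03390: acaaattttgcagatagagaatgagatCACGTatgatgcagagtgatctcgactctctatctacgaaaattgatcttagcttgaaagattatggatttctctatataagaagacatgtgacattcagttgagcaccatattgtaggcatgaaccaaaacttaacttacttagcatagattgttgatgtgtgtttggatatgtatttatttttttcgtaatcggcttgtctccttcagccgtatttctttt
FUM2: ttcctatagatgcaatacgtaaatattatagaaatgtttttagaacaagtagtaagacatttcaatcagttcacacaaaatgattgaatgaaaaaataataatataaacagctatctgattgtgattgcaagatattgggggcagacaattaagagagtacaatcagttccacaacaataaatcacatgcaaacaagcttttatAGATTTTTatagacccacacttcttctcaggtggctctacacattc
ERD1: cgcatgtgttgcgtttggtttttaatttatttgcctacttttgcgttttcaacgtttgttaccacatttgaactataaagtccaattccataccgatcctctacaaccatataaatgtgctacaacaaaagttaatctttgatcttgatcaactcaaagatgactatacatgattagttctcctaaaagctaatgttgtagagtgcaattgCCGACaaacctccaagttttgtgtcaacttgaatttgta
JAZ3: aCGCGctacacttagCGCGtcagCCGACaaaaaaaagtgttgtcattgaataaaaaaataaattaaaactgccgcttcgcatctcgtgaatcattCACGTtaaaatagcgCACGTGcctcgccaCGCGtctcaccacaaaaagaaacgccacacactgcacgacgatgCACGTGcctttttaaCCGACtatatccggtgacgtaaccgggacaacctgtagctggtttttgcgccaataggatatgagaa
TIP1;2: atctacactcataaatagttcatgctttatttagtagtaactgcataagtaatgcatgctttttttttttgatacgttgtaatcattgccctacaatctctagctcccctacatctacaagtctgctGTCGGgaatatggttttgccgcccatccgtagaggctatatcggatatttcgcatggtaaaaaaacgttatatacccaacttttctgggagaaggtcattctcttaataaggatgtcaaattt
JAZ3 held matches of 4 of the 6 motifs and the other genes of 1 each, with the CRT/DRE core in ERD1 at 39 and in TIP1;2 at 123 bases before the start. Over the called genes, 13.7% of promoters held the CRT/DRE core, against 13.4% of 10634 promoters of genes compared. For the abscisic acid core the shares were 30.8% and 23.3%, for the G-box 9.4% and 7.95%, and for the CCA1 site 11.1% and 7.02%. The evening element was in 4.27% against 2.39%, and the CAMTA core in 4.27% against 11.1%. A match is a description of letters, and these shares carry no test.

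Among genes that rose, AT2G03390 on chromosome 2 (TAIR10.1, 1030402 to 1032718) led. It encodes a protein annotated with a uvrB/uvrC motif. In standard plants its non-thaliana allele stood at 8, 2 and 3 beside a thaliana allele of 118, 123 and 153 (values with the added 1 taken off). In cold the non-thaliana allele stood at 102, 112 and 143 beside 67, 76 and 81. The gene thus went from nearly all thaliana RNA to a slight lead of the other copy, from a mean share of 3.19% to 61.4%. The log2 ratio rose by 5.44 ± 0.44 (SE, n = 3 and 3), a 43.5-fold change of the ratio (limma adjusted p = 0.00171). The non-thaliana allele rose by 4.63 (adjusted p = 0.0101), and the thaliana value was -0.81 (adjusted p = 0.506). It was the only one of 32 called genes named by rule that remained called when each of the 6 plants was left out in turn, with an adjusted p of at most 0.0270. AT1G21930, an uncharacterised gene outside the rule for its low level and named after its values were seen, showed the same form. Its non-thaliana allele was at 0, 0 and 1 in standard and at 40, 134 and 75 in cold plants, and its thaliana allele at 35, 13 and 43 and at 23, 94 and 49.

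PYK10, the beta-glucosidase of endoplasmic reticulum bodies and a marker of roots, rose by 2.63 ± 0.39 (adjusted p = 0.0221). Its ratios were -3.26, -3.07 and -3.51 in standard and -0.68, -0.80 and -0.49 in cold plants, which did not overlap. Its summed values spanned both groups, with thaliana values of 66, 209 and 341 in standard and 660, 131 and 97 in cold. The other root markers summed to 159, 0 and 8 in cold replicates 1, 2 and 3, so nearly all of this lay in replicate 1. In standard plants they summed to 0, as given above, and their part in this ratio was not tested. The gene overlaps AT3G09250, and reads of overlapping genes cannot be told apart here.

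The other rises of the rule lay between 1.49 and 3.21. AT1G13470 (DUF1262) and AT5G42830, an acyltransferase of the HXXXD type, led by the non-thaliana allele already in standard plants and led further in cold. The ratio of AT5G42830 was 1.51, 1.64 and 1.82 in standard and 3.70, 5.04 and 5.09 in cold plants, with thaliana values of 13, 16 and 14 and of 2, 3 and 0. That low thaliana level makes the size depend on the 1 added to each allele. AIG2, named for a gene induced in avirulent infection, crossed from ratios of -1.36, -0.56 and -0.76 to 0.56, 0.58 and 0.84. Its thaliana allele went from 181, 105 and 104 to 45, 35 and 37, while the other allele stood at 70, 71 and 61 and at 67, 53 and 67. The thaliana change of AIG2 was -1.68 (limma adjusted p = 0.199). SDR1, a short-chain dehydrogenase, crossed with its larger recorded change in the non-thaliana allele (1.77, limma adjusted p = 0.191). That allele went from 17, 37 and 62 to 126, 114 and 118 beside thaliana values of 50, 117 and 138 and of 107, 77 and 116. AT4G39150, a protein with a DNAJ domain, moved from near-equal ratios of 0.37, 0.19 and 0.09 to 1.72, 1.70 and 1.75. The remaining 5 were AT5G04750 (inhibitor of the F1F0-ATPase), AT1G27930 (glucuronoxylan methyltransferase-like), AT5G47435 (formyltetrahydrofolate deformylase), AT4G10060 (beta-glucosidase of the GBA2 type) and AT1G67950 (RNA-binding), and their changes were 1.96, 1.68, 1.59, 1.50 and 1.49. AT5G04750 reached the mean of 50 in standard plants only through replicate 1, with thaliana values of 206, 4 and 4 beside 239, 2 and 3. Adjusted p over the 12 rises ran up to 0.0498.

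Among genes that fell, FUM2, the cytosolic fumarase that makes malate and fumarate interconvert and is known in *A. thaliana* for the build-up of fumarate in leaves, had the largest change by the rule. In standard plants its thaliana allele stood at 9, 2 and 6 and the other at 65, 30 and 117. In cold they stood at 41, 83 and 89 and at 51, 188 and 74. The thaliana copy, at 9 or less in standard plants, stood at 41 or more in cold plants, with a thaliana change of 3.51 (adjusted p = 0.0595) and a non-thaliana change of 0.53 (adjusted p = 0.809). The ratio fell by 2.98 ± 0.45 (adjusted p = 0.0221, up to 0.116 with 1 plant left out). It lies on chromosome 5 from 20729431 to 20733941.

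LHCB4.3, an antenna protein of photosystem II also known as Lhcb8, exchanged its leading allele. The ratios were 2.20, 1.00 and 1.38 in standard and -1.12, -1.34 and -1.30 in cold plants. Its thaliana allele stood at 26, 9 and 4 and then at 38, 70 and 53, and the other at 123, 19 and 12 and then at 17, 27 and 21, far below the upper limit of the cold libraries. The ratio fell by 2.78 ± 0.29 (adjusted p = 0.00599, up to 0.0506 with 1 plant left out). LHCB4.3 reached the mean of 50 in standard plants only through replicate 1, and its other standard ratios rest on fewer units.

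FLA13, a fasciclin-like arabinogalactan protein of the cell surface, had its larger recorded change in the non-thaliana allele (-2.73, limma adjusted p = 0.242). That allele stood at 303, 41 and 427 in standard and at 68, 24 and 10 in cold plants, beside thaliana values of 285, 66 and 334 and of 289, 301 and 57. Near-equal alleles thus became a lead of the thaliana copy in every cold plant, and the ratio fell by 2.61 ± 0.47 (adjusted p = 0.0385). AT2G34510, a cell wall protein of the DUF642 family, had its larger recorded change in the thaliana allele instead (2.18, limma adjusted p = 0.108). Its thaliana values were 41, 83 and 36 in standard and 215, 198 and 285 in cold plants, beside 40, 169 and 58 and then 47, 80 and 81 for the other allele. In AT3G62550, annotated as an adenine nucleotide alpha hydrolase-like protein, both alleles were higher in cold. Its thaliana allele went from 9, 25 and 33 to 305, 300 and 317 and the other from 46, 58 and 151 to 332, 277 and 306, and the thaliana change of 3.89 was called (adjusted p = 0.0488). An unequal start ended in equal alleles, with cold ratios of 0.12, -0.11 and -0.05.

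FLS2, the receptor kinase for bacterial flagellin, went from ratios of -0.21, 0.31 and -0.51 to -2.15, -1.83 and -2.13. Its thaliana allele stood at 21, 24 and 46 and then at 70, 63 and 82, and the other at 18, 30 and 32 and then at 15, 17 and 18. The ratio fell by 1.90 ± 0.29 (adjusted p = 0.0221, up to 0.116 with 1 plant left out), and the gene overlaps AT5G46340. AT2G23790, of the mitochondrial calcium uniporter family, went from 1.93, 1.55 and 2.10 to -0.26, -0.33 and -0.64. The remaining 5 falls were AT3G16220 (-2.56), AT1G50740 (-2.44), AT1G07440 (-1.85), AT5G04830 (-1.84) and AT5G10780 (-1.73), the last a subunit-like protein of the endoplasmic reticulum membrane complex. None of the 12 overlapped between cold and standard plants, as the rule required.

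**Figure D3:**
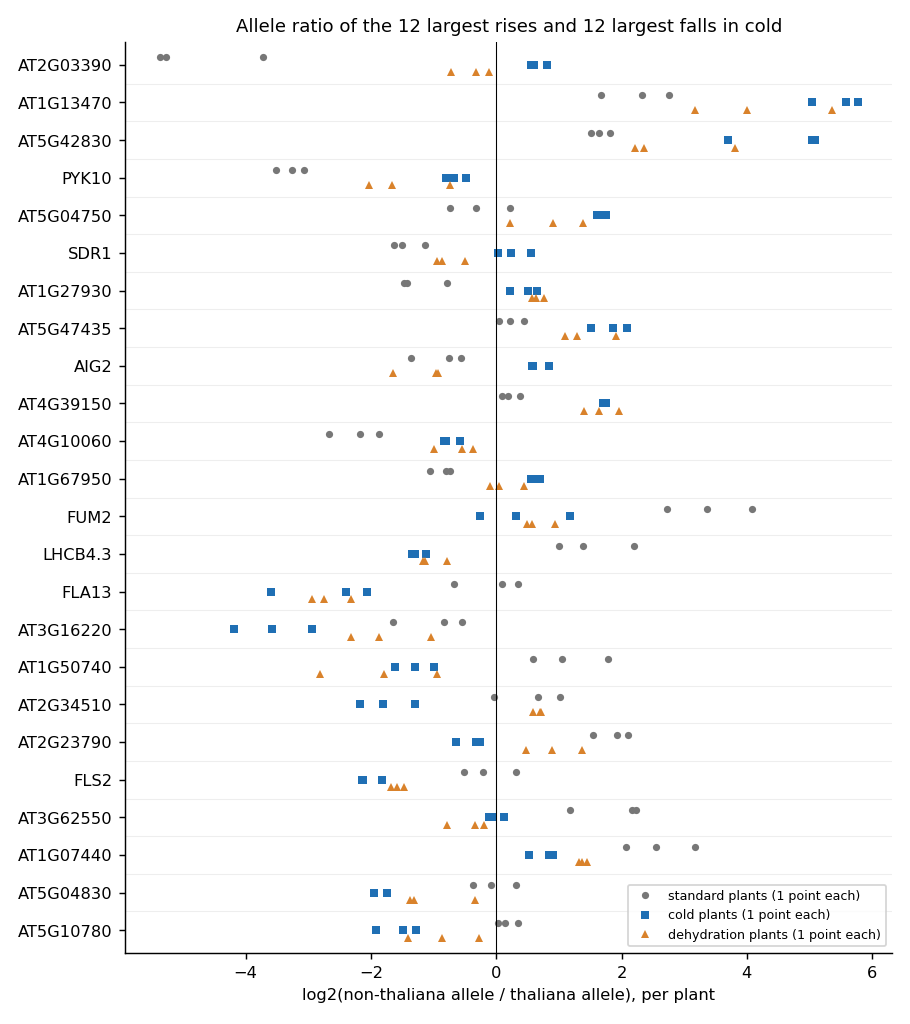
Each point is the log2 ratio of the non-thaliana over the thaliana allele in 1 halleri-labelled plant (circles standard, squares cold, triangles dehydration, 3 of each) for 24 called genes, the 12 that rose most and the 12 that fell most at a mean of 50 or more. Cold squares and standard circles do not overlap in any row, AT2G03390 spans the widest gap, and in AT2G34510 and AIG2 the dehydrated plants sit among or near the standard ones and apart from cold.

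Either allele could have the larger recorded change. Over the 117 called genes the thaliana allele moved more than the other in 63 and the non-thaliana allele in 54. They went in opposite directions in 62, both upward in 33 and both downward in 22, while over all genes compared opposite directions were seen in 2088 of 10640. The called rises had a median thaliana value of -0.90 and a median non-thaliana value of 0.98, and the called falls 1.20 and -0.62. The called genes were chosen by the difference between their allele changes, which favours opposite directions, so these counts and medians carry no test. Tested alone, few alleles changed. The thaliana allele was called in 10 genes (0.094%), 9 higher (0.0846%) and 1 lower (0.0094%), and the non-thaliana allele in 5 (0.047%), 4 higher (0.0376%) and 1 lower (0.0094%). The 1 thaliana allele called lower was that of RBCS1A, which sits at the upper limit of the cold libraries. GSTU13, a glutathione transferase, and AT1G64680, a protein like the beta-carotene isomerase D27, were called higher for both alleles. Their alleles rose by 2.86 and 3.22 and by 4.12 and 3.79, so their ratios moved by 0.35 and -0.32 and were not called. ARR6, a cytokinin response regulator, and AGP1, an arabinogalactan protein, were called higher for the thaliana allele by 2.98 and 2.80, beside 2.10 and 1.38 for the other. Without standard replicate 1 the thaliana and non-thaliana alleles were called in 256 and 258 genes, and without the other plants in 0 to 1 and in 1 to 9. With the 91 genes near the upper limit left out, the counts were 2 and 5.

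**Figure D4:**
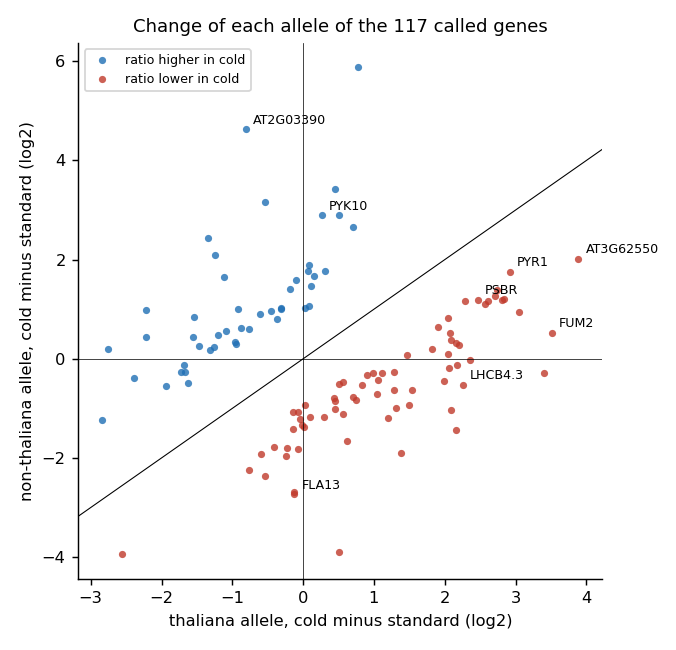
Each point is 1 of the 117 called genes, placed by the change of its thaliana allele (x axis) and of its non-thaliana allele (y axis) in cold against standard, in log2 units after scaling for library composition; the diagonal marks an unchanged ratio. Genes lie on both sides in all directions, with AT2G03390 displaced along the non-thaliana axis, FUM2 along the thaliana axis, and PYR1 and AT3G62550 where both alleles were higher.

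Pathway genes were followed in 14 lists of 397 genes, of which 294 were in the files, 216 were compared and 8 were called, 1 higher and 7 lower. Over all genes compared 1.1% were called, 0.432% higher and 0.667% lower, and 17.9% had an unadjusted p below 0.05, and the counts of each list stand against these shares. Among clock genes 1 of 21 was called, and the median change of the list was 0.09 beside -0.03 over all genes. That gene was CDF1, a DOF factor whose daily cycle restrains flowering. Its ratios were -0.46, -0.55 and -0.51 in standard and -2.20, -1.93 and -1.78 in cold plants, with non-thaliana values of 7, 14 and 20 and of 4, 4 and 8. The ratio fell by 1.46 ± 0.26 (adjusted p = 0.0385, up to 0.140 with 1 plant left out), at values this low.

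Of 30 early regulators of the cold response 25 were in the files and 13 were compared. The others in the files lacked a mean of 10 in cold or in standard plants, so these counts do not speak for them. Of the 13 compared none was called and 3 (23.1%) had an unadjusted p below 0.05, beside 17.9% of all genes. ICE1, the MYC-like activator upstream of CBF3, had the smallest p, with ratios of 0.81, -0.08 and 0.62 in standard and -0.31, -0.28 and -0.25 in cold plants, a change of -0.73 (adjusted p = 0.162). Of 10 cold-regulated effectors 1 was called, the dehydrin COR47. The non-thaliana allele of COR47 stood at 1090, 457 and 218 in standard and at 802, 301 and 234 in cold plants, and the thaliana allele at 390, 147 and 68 and at 727, 192 and 191. The lead of the non-thaliana copy shrank in every cold plant, from ratios of 1.48, 1.63 and 1.67 to 0.14, 0.65 and 0.29. The ratio fell by 1.23 ± 0.23 (adjusted p = 0.0413, up to 0.170 with 1 plant left out). RCI2A, a small membrane protein raised by cold, had the largest value of the list, -2.10 (adjusted p = 0.0544).

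Of 25 genes of abscisic acid synthesis, perception and response 2 were called, in opposite directions. PYR1, a receptor of the hormone, stood at thaliana values of 29, 11 and 36 in standard and 315, 89 and 205 in cold plants, beside 66, 19 and 56 and then 269, 77 and 141. Both alleles were thus higher in each cold plant than in any standard plant, and the lead passed to the thaliana copy. PYR1 thus fell by 1.16 ± 0.20 (adjusted p = 0.0360, up to 0.145 with 1 plant left out). ERD1, a Clp ATPase of the chloroplast named for its early response to dehydration, went from ratios of -0.03, -0.33 and -0.40 to 0.73, 0.74 and 0.73. The SD of the 3 cold plants was 0.01, and the ratio rose by 0.99 ± 0.18 (adjusted p = 0.0385, up to 0.150 with 1 plant left out). PP2CA, a phosphatase that holds the pathway off, was at 1.13 (adjusted p = 0.0811), and CYP707A2, which breaks the hormone down, at -2.00 (adjusted p = 0.0978).

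Among 13 jasmonate genes 1 was called, the repressor JAZ3. Its ratios were 2.24, 1.84 and 1.79 in standard and 0.52, 0.48 and 0.42 in cold plants, from thaliana values of 10, 11 and 19 and then 15, 50 and 29. The JAZ3 ratio fell by 1.48 ± 0.26 (adjusted p = 0.0385, up to 0.155 with 1 plant left out). The list had a median of -0.38, with JAZ5 at -1.68 (adjusted p = 0.217) and JAZ2 at 1.00 (adjusted p = 0.114), so its members did not share a direction. Of 12 aquaporins 1 was called, TIP1;2 of the vacuolar membrane. Its ratios went from 0.46, 0.48 and -0.18 to -0.87, -0.97 and -1.29, and it fell by 1.30 ± 0.24 (adjusted p = 0.0414, up to 0.167 with 1 plant left out). FLS2, described above, was the 1 gene called of 14 for touch, wounding and defence.

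Of 31 nuclear photosynthesis genes 1 was called, PSBR, a subunit of photosystem II at its oxygen-evolving side. Its non-thaliana allele stood at 7561, 1102 and 320 in standard plants beside thaliana values of 4178, 354 and 121. In cold the alleles stood at 2738 and 2593, 3795 and 3794, and 3159 and 3161, where each library has its upper limit. The recorded fall of 1.27 (adjusted p = 0.0413) therefore cannot be told apart from that limit, and in dehydrated plants, whose values were up to 4955, the ratios were 0.60, 0.66 and 0.64. PSBR also overlaps AT1G79050. The list ranged from -1.27 to 0.87.

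No gene was called among 8 of heat shock and chaperones, 19 of darkness and sugar starvation, 9 of flavonoid synthesis, 17 of glucosinolates, 20 of metal homeostasis and 4 reference genes. At an unadjusted p below 0.05 they held 0, 6, 4, 5, 2 and 0 genes, which is 0%, 31.6%, 44.4%, 29.4%, 10% and 0% of each, beside 17.9% of all genes. The members with the smallest p were HSFA1D (-0.57), DRM1 (-2.14), LDOX (1.68), MYB51 (1.03), ZIP6 (-1.10) and SAND (0.44), with adjusted p of 0.300, 0.0707, 0.0717, 0.0845, 0.0951 and 0.285. LDOX, which makes anthocyanidins, had ratios of 1.10, 0.07 and 0.26 in standard and 1.46, 2.58 and 2.42 in cold plants, at thaliana values of 0 to 20. Its values do not overlap between the groups but rest on few units. The flavonoid list had the highest median, 0.46, and the jasmonate list the lowest, beside -0.03 over all genes compared.

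**Figure D5:**
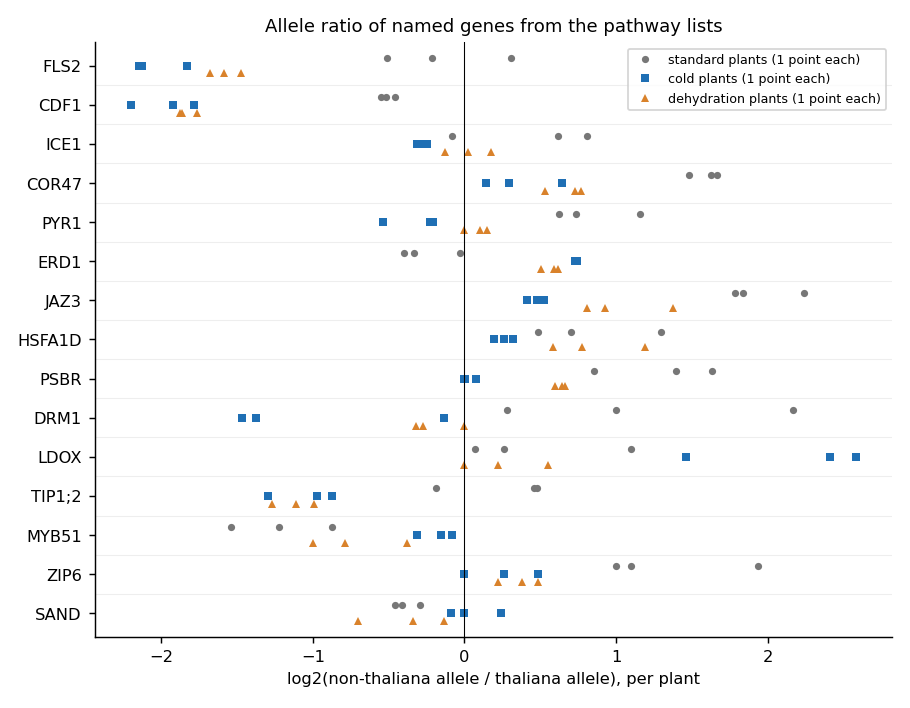
Each point is the log2 ratio of the non-thaliana over the thaliana allele in 1 halleri-labelled plant (circles standard, squares cold, triangles dehydration) for the called genes of the pathway lists and the smallest-p gene of each list without a call. The cold squares of ERD1 coincide near 0.73, those of PSBR lie at 0, where the cold libraries have their upper limit, and those of ICE1, which was not called, lie between -0.31 and -0.25, below standard circles from -0.08 to 0.81.

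Dehydrated plants shared the dim light and the hour of treatment with cold plants but stayed at 22 °C, and both treatments were set against the same standard plants. Beside a cold change of 5.44, AT2G03390 had a dehydration change of 4.40, with dehydrated ratios of -0.11, -0.72 and -0.33. For FUM2 the changes were -2.98 in cold and -2.72 in dehydration, for LHCB4.3 -2.78 and -2.56, and for FLA13 -2.61 and -2.59. For CDF1 they were -1.46 and -1.33, for TIP1;2 -1.30 and -1.38 and for ERD1 0.99 and 0.83. AIG2 stood at 1.55 and -0.29, and AT3G16220 at -2.56 and -0.74. The direct contrast of cold with dehydrated plants does not subtract the standard plants, which enter through the shared estimate of spread. It called 3 of 10141 genes (0.0296%), 2 higher in cold (0.0197%) and 1 lower (0.00986%). With only the cold and dehydrated plants in the fit it called 0 (limma, beside 1515 genes at an unadjusted p below 0.05). The one lower was AT2G34510, with cold ratios of -2.17, -1.30 and -1.80 beside 0.71, 0.58 and 0.69 after dehydration, a difference of -2.42 ± 0.30 (adjusted p = 0.0488). The others were AT5G08780, a winged-helix protein (3.29, adjusted p = 0.00466), and AT1G36380 (1.94, adjusted p = 0.0488), named after their values were seen, and neither was called in cold against standard. For AIG2 the direct difference was 1.85 (adjusted p = 0.0873). Without any 1 plant the direct contrast called 0 or 1 genes, 1 without each cold plant and 0 without each dehydrated plant (limma, beside 907 to 1108 genes at an unadjusted p below 0.05).

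The lyrata-labelled plants give the same contrast in other plants, with 3 in cold and 3 standard. Of the 117 called genes 105 could be compared there, and 80 of them (76.2%) moved in the same direction, against 59.7% of 9895 genes. In that hybrid 84 genes (0.849%) were called in cold, 10 of them among the 105 and all 10 in the same direction. They include AT2G03390 with 4.69 (adjusted p = 0.00337), SDR1 with 1.37 (adjusted p = 0.0355) and AT1G21930 with 2.28 (adjusted p = 0.0493). In AT2G03390 the non-thaliana allele of the lyrata-labelled plants stood at 0, 1 and 0 in standard and at 52, 60 and 51 in cold plants. The labels call the standard plants of both hybrids leaf samples, and the part of that in this likeness was not tested. Tested directly, the cold change differed between the hybrids in 7 of 9895 genes (0.0707%), 4 upward (0.0404%) and 3 downward (0.0303%), among them LHCB4.3, PSBR and LSF2, a phosphatase of starch breakdown, which were called in halleri-labelled plants. LSF2 went from 2.64, 2.26 and 2.44 to 0.66, 0.77 and 0.80 in halleri-labelled plants, and from -1.10, -0.43 and -1.14 to -0.61, -0.60 and -0.70 in lyrata-labelled ones.

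Called genes lay on all 5 chromosomes, with 28 of 2763 genes compared on chromosome 1, 25 of 1617 on chromosome 2, 26 of 2158 on chromosome 3, 9 of 1535 on chromosome 4 and 29 of 2561 on chromosome 5. Calls were most frequent at the highest values, in 0.98% of genes with a mean below 20, 0.641% of those from 20 to 50, 1.22% from 50 to 200 and 2.28% above 200, while the median SE of the change went from 0.40 to 0.33, 0.27 and 0.22. The median size of the change went from 0.42 to 0.33, 0.29 and 0.29, so larger sizes stood where the error was larger. At the limit of inclusion, the 263 genes just inside, at means of 10 to 10.7, had a median size of 0.44, and the 257 just outside, at 9 to 9.67, one of 0.42. Of the called genes 39 (33.3%) overlap another annotated gene, as do 34.9% of all genes compared.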

How the data were processed

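Per the labels, RNA was taken from the whole aerial part of 1 hybrid plant per library and prepared with a TruSeq v2 kit, with replicates made a week apart, though the labels do not tie a number to a week. The submitters' processing notes name the build TAIR10 and the tools TopHat2, SAMtools and DESeq2, with no version or role. The way reads were split between alleles is not stated there. Each deposited file holds a score per gene and allele. From its values, this score is a read number scaled to a near-equal total, rounded, with 1 added.

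The scores are not counts, so limma 3.58.1 (R 4.3.3, eBayes with trend and robust) was run on log2 values of all 9 halleri-labelled plants, or of all 18 for the difference between hybrids. Tests were 2-sided, with p adjusted after Benjamini and Hochberg over all genes compared. Ratios used the scores as deposited, which pulls low genes toward equal alleles. Single alleles were divided by TMM factors (trims of 30% and 5%), so a fold change is on the log2 scale of score over factor. Replicates are separate plants. The members and lists were chosen with earlier results of these data known. The text names the 12 largest rises and 12 largest falls (called, mean of 50 or more, no overlap), every called list gene, the smallest p of each other list, and up to 5 genes each way for the other contrasts. The fit was tested on simulated data. Of 16419 genes, 16404 were matched to TAIR10.1 and 15 were not. Other settings were tried, and 3 were chosen after seeing the data: leaving out genes near the upper limit of a cold library, both first replicates, or overlapping genes.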

Additional observations from a re-analysis of the deposited data

Results flagged for a closer look

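The cold change of the allele ratio differed between the hybrids in 7 genes by the test of that difference (limma interaction, adjusted p below 0.05), given as the change in halleri-labelled minus that in lyrata-labelled plants. AT5G02240, a Rossmann-fold protein, differed by 5.13 ± 0.61 (adjusted p = 0.00173): its ratio lay between 0.09 and 0.69 in the cold and standard halleri-labelled plants, with a change of -0.09, and moved by -5.23 in lyrata-labelled plants. LHCB4.3 differed by -2.99 ± 0.46 (adjusted p = 0.0250), with changes of -2.78 and 0.21, at low halleri-labelled standard values outside replicate 1. For LSF2 the difference was -1.95 ± 0.32 (adjusted p = 0.0329), with changes of -1.70 and 0.25. The dehydrin RAB18 differed by 2.66 ± 0.43 (adjusted p = 0.0329), with 0.94 and -1.71. CRR6, an assembly factor of the chloroplast NDH complex, differed by 2.21 ± 0.39 (adjusted p = 0.0471), with -0.46 and -2.67. In halleri-labelled standard plants the thaliana values of RAB18 were 21, 0 and 0 beside 41, 1 and 1. Those of CRR6 were 65, 5 and 4 beside 68, 6 and 6. Outside standard replicate 1 the standard ratios of both genes therefore rest on few units and on the added 1. AT3G06450, of a bicarbonate transporter family, differed by 2.39 ± 0.42 (adjusted p = 0.0471), with 0.58 and -1.82. PSBR differed by -1.81 ± 0.32 (adjusted p = 0.0471), with its halleri-labelled cold values at the upper limit of the libraries. RAB18 and AT3G06450 fall outside the naming rule and were named after their values were seen. Leaving out each of the 12 plants in turn gave 1 to 42 such genes, 42 without halleri-labelled standard replicate 1.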

How the results depend on the processing

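Counts of called genes are given in the order cold change of the ratio, of the thaliana allele and of the non-thaliana allele, cold against dehydration, and difference between the hybrids, which were 117, 10, 5, 3 and 7. With only the libraries compared they were 12, 0, 1, 0 and 2 (limma, unadjusted p below 0.05 for 1808, 1044, 985, 1515 and 1035 genes). With a mean of 50 or more they were 224, 3, 1, 20 and 14, and with library weights 224, 84, 76, 48 and 26. With the replicate number as a block they were 9, 0, 3, 3 and 2. Deviations of same-numbered plants correlated by 0.07, 0.01 and 0.02, so the numbers were not taken to pair plants, and 3 of the 32 named called genes were called under the block. Without a filter the counts of the 2 alleles and of cold against dehydration were 40, 26 and 13. With 0.5 added, cold against dehydration and the difference between the hybrids gave 1 and 3, and with each median ratio set to 0 the former gave 1. Settings chosen after seeing the data gave, without both first replicates, 117 for the ratio (67 higher, 50 lower, 37 of the 117 shared), 241 and 271 for the alleles and 12 for the hybrids. Without overlapping genes the non-thaliana allele gave 8 and cold against dehydration 0 (unadjusted, 766), and without genes near the upper limit the thaliana allele gave 2. Leaving out 1 plant in turn gave 5 to 311, 0 to 256, 1 to 258, 0 to 1 and 1 to 42, and -0.04 to -0.01 for the median ratio. The cause of these shifts was not tested. Among named called genes none changed direction under any setting, and the highest adjusted p was 0.188. AT5G02240, not called, moved from -0.09 to 0.0025 with library weights, to between -0.19 and 0.10 with 1 plant left out and to 0.16 without both first replicates. The unknown depth limits low genes most.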
